A study of Homo sapiens with 6 samples.

Results

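The genes described here copy the genome and commit a cell to doing so. They are 35 DNA replication and G1/S genes, chosen by symbol from a list of the origin recognition complex, the helicase loaders, the MCM helicase and its activators, the sliding clamp with its loader, the replicative polymerases, the enzymes of deoxynucleotide synthesis, and 3 regulators of entry into S phase. All 35 were found, with 1 probe set each, among 17687 named genes and 21448 probe sets. mRNA was measured on 6 single-colour arrays of K562, an established human erythroleukaemia line grown from a patient with chronic myeloid leukaemia and driven by the BCR-ABL1 fusion. On 3 arrays the cells held a vector for the microRNA miR-543 (the miR-543 vector), and on the other 3 they held a control vector. Every array is from K562 cells. The labels give no time, dose, vector type or clone. Nothing in them ties a replicate to its own culture, and the p-values then measure a spread that may be technical.

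Replication is prepared in G1 phase and fired in S phase. The origin recognition complex binds origins, and CDC6 and CDT1 then load the ring-shaped MCM2-7 helicase onto DNA, a step called licensing. Cyclin E with its kinase, and the DBF4-dependent kinase CDC7, later switch the ring on by attaching CDC45 and the GINS complex, after which polymerases held by the PCNA clamp copy both strands. Many of these genes are transcribed by E2F factors once the retinoblastoma protein lets go of them. A microRNA pairs with mRNAs chiefly through its seed, bases 2 to 8, so the agent of this experiment is shown with its seed in capitals (RefSeq, GRCh38.p14, chromosome 14). No probe set carried the symbol of the miR-543 gene, so its level is not reported.

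hsa-miR-543: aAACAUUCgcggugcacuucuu

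Values are log2 signals as the authors deposited them, and a change is the miR-543 mean minus the control mean on that scale. The 6 arrays had medians of 5.99 to 6.01 and upper quartiles of 9.61 to 9.66. Of the K562 markers, 6 of 7 measured erythroid genes, among them HBE1, HBZ, GATA1 and TFRC, had a mean signal above the upper quartile of all probe sets. Of the lists for other cells, 1 of 4 lymphoid genes (CD3D), 1 of 4 monocyte genes (LYZ), 1 of 4 epithelial genes (EPCAM) and 0 of 4 fibroblast genes did so. By limma 0 of these 23 markers passed between the vectors at an adjusted p under 0.05. At an unadjusted p under 0.05 there were 4, KLF1, TAL1, ALAS2 and CD3D, each higher on the miR-543 arrays. Of all probe sets 10.6% had such a p, 5.40% on the higher side. The summed log2 signal of the lymphoid list ran from 25.59 to 26.61 on the miR-543 arrays and from 24.75 to 25.71 on the control arrays. That of the erythroid list ran from 92.08 to 92.87 on the miR-543 arrays and from 90.41 to 90.86 on the control arrays. In the same order the sums were 30.78 to 31.88 and 30.45 to 31.36 for the monocyte list. They were 23.53 to 23.79 and 23.6 to 24.61 for the epithelial list, and 22.36 to 23.14 and 21.34 to 22.74 for the fibroblast list. Their part in the results was not tested, and in bulk RNA fewer cycling cells and less mRNA per cell cannot be told apart.

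The comparison asked whether cells with the miR-543 vector held more or less mRNA of the replication machinery than cells with the control vector. By limma with Benjamini-Hochberg adjustment over all probe sets, 0 of the 35 genes passed an adjusted p of 0.05, where 0.569% of all probe sets did (0.438% lower, 0.131% higher). At an unadjusted p under 0.05 there were 3, ORC4, CDC6 and GINS1, all with lower signal on the miR-543 arrays. That is 8.57% of the genes against 10.6% of all probe sets in either direction, with 5.21% of all probe sets on the lower side and 5.40% on the higher side. The changes of the 35 ran from -0.47 for ORC4 to 0.38 for E2F1. Of the 35, 22 lay below 0 and 13 above, with a median of -0.07, beside a median of 0.01 and 47.1% below 0 over all probe sets. Among the 5360 probe sets with a mean signal above the upper quartile, where 26 of the 35 genes lie, 52.4% were below 0 and the median was -0.01.

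The 95% intervals rest on the spread between these arrays, which may be technical, so they set no bound for separate cultures. For all 35 genes the 95% interval of the change lay inside 2-fold in either direction, as it did for 96.6% of all probe sets. Inside 1.5-fold lay the intervals of 28 of the 35, and of 62.4% of all probe sets. Among probe sets with signal above the upper quartile, 98.3% lay inside 2-fold and 75.3% inside 1.5-fold. The lowest bound was -0.81, for MCM10, and the highest 0.97, for E2F1.

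**Figure D1:**
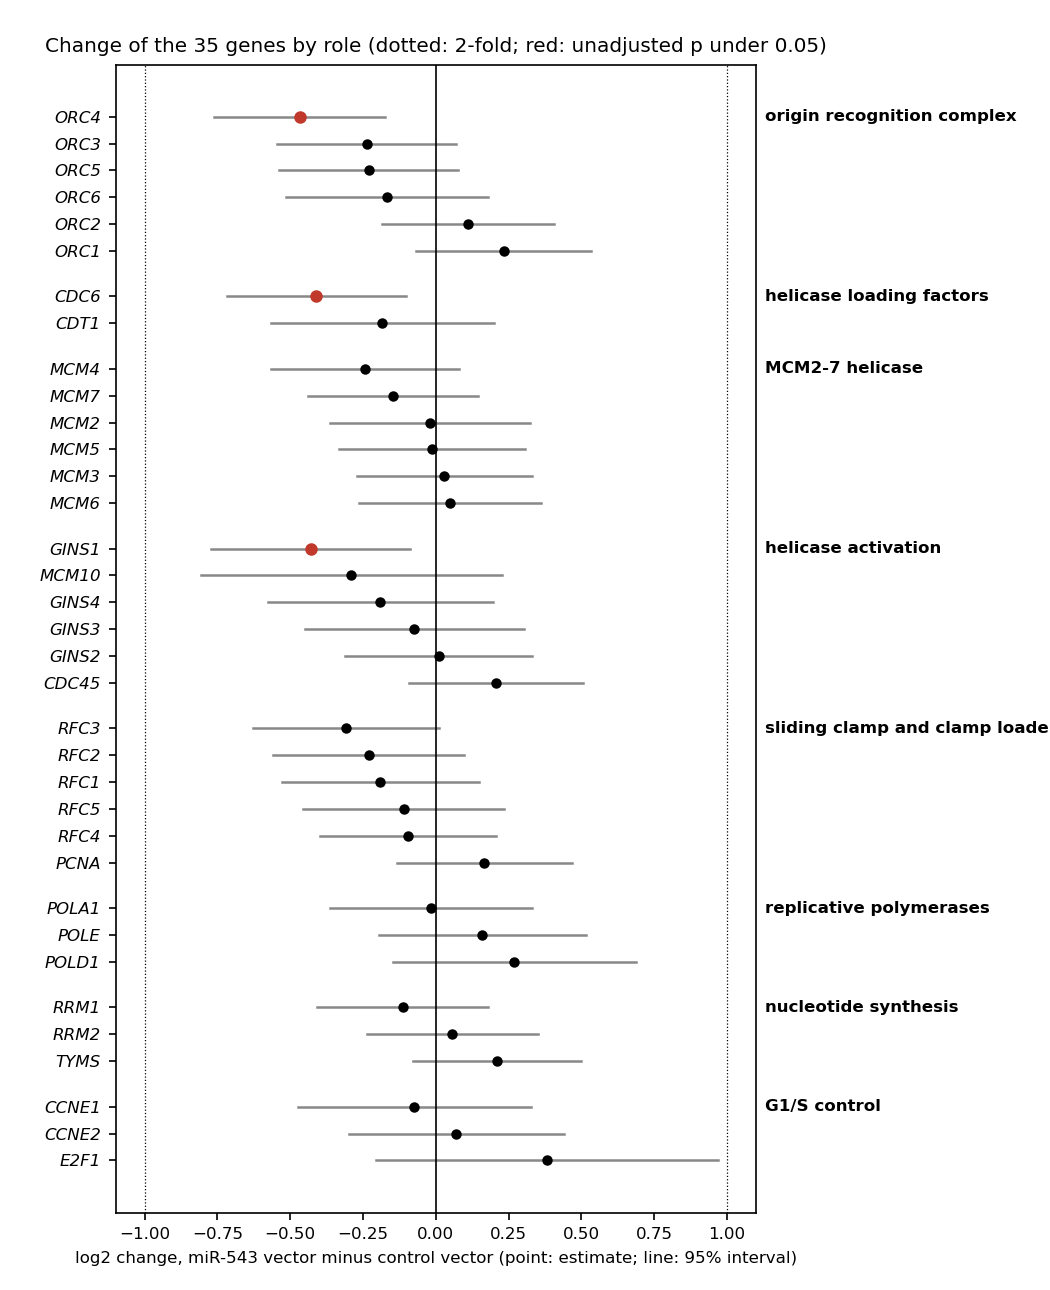
Change of each of the 35 genes by role, as log2 signal with the miR-543 vector minus that with the control vector (horizontal axis), with points for estimates and lines for 95% intervals. All intervals lie between -0.81 and 0.97, inside the dotted lines at 2-fold, and the 3 red points (ORC4, CDC6, GINS1) have an unadjusted p under 0.05.

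Some of the small differences were regular across arrays. In 13 of the 35 genes (37.1%) the 3 miR-543 arrays lay all on one side of the 3 control arrays, beside 15.4% of all probe sets and 21.5% of those with signal above the upper quartile. In 9 of them the miR-543 arrays were the lower ones, ORC3, ORC4, ORC5, CDC6, MCM4, MCM7, GINS1, RFC3 and RRM1. In 4 they were the higher ones, ORC1, CDC45, PCNA and TYMS. The lower share was 7.50% of all probe sets and 11.9% of those above the upper quartile. The higher share was 7.89% and 9.53%. The median residual SD was 0.13 for the 35 genes, against 0.20 over all probe sets and 0.14 for probe sets above the upper quartile. Separated groups came with small changes here, from -0.47 to 0.23.

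The largest difference in size was that of ORC4, a subunit of the origin recognition complex that belongs to the AAA+ ATPase family (TC0200014550.hg.1, chromosome 2). It measured 12.20, 12.11 and 12.15 with the miR-543 vector, against 12.68, 12.53 and 12.65 with the control vector. All miR-543 arrays were lower than all control arrays, by a log2 change of -0.47 (SE 0.13, adjusted p = 0.235). The 95% interval was -0.76 to -0.17, and the signal was 72.4% of that with the control vector. With a variance prior that follows signal and resists outliers in limma, ORC4 passed (adjusted p = 0.0414), and its alternatives spanned 0.0414 to 0.577.

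CDC6, the ATPase that joins the origin recognition complex to load the helicase (TC1700007790.hg.1, chromosome 17), measured 10.82, 11.06 and 10.90 with the miR-543 vector, against 11.40, 11.36 and 11.25 with the control vector. Again no miR-543 array reached a control array. The means were 10.93 ± 0.12 and 11.34 ± 0.078 (SD, n = 3 each), and the change was -0.41 (SE 0.14, interval -0.72 to -0.10), with an adjusted p of 0.326.

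GINS1, a subunit of the GINS complex that rides with the active helicase (TC2000007016.hg.1, chromosome 20), measured 10.12, 9.82 and 10.05 with the miR-543 vector, against 10.48, 10.57 and 10.23 with the control vector. The groups did not overlap, and the nearest arrays of the 2 groups were 10.12 and 10.23. The change was -0.43 (SE 0.15, interval -0.77 to -0.09), with an adjusted p of 0.365.

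The windows around the starts of these 3 genes are shown because they had the smallest p-values of the list and because E2F control is the best known shared feature of replication genes. Each window has 130 bases before and 20 bases after a RefSeq start (GRCh38.p14), 5′ to 3′ on the gene's strand, and capitals mark E2F-type letters. ORC4 has 2 starts in the table.
CDC6, chr17:40287749-40287898, + strand: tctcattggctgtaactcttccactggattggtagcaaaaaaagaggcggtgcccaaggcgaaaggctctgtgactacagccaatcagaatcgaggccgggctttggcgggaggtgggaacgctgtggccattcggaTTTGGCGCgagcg
GINS1, chr20:25407543-25407692, + strand: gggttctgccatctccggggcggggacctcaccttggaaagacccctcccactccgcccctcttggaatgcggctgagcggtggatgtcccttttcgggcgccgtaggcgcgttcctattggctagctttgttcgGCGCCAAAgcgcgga
ORC4 first start, chr2:148021532-148021681, - strand: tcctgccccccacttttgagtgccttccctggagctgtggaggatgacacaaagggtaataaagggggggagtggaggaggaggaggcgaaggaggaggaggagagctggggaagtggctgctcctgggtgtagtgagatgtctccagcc
ORC4 second start, chr2:148020718-148020867, - strand: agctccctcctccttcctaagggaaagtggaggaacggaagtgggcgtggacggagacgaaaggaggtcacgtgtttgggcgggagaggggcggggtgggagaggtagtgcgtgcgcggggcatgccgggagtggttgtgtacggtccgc

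The letters searched were TTTGGCGC, TTTCCCGC, TTTGCCGC and TTTCGCGC on both strands, with overlapping matches merged, in windows of 250 bases before to 50 after each start. Windows were found for 31 of the 35 genes, and MCM4, MCM5, GINS4 and CCNE2 had no entry. Of these 31 genes 16 (51.6%) held the letters at 1 or more starts, as did 762 (5.35%) of 14250 genes named on the array that had an entry. By window the shares were 41.0% and 4.03%. A CCAAT box, searched as CCAAT on both strands, stood in 20 of the 31 (64.5%) and in 42.3% of the genes named on the array, and 11 genes held both. The E2F-type letters sat near the start, and in 12 of the 16 genes a match began within 50 bases of it. In CDC6 and GINS1 they began at bases 8 and 6 after the start (the first transcribed base being 1).

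The 16 genes with these letters had a median change of -0.02, 9 below 0 and 7 above, and ran from -0.43 to 0.38. The 15 without them had a median of -0.11, 10 below and 5 above, and ran from -0.47 to 0.27. Matches are descriptions of the letters and not measured binding sites. Only the listed forms were searched, so a gene without a match may hold other forms. The split therefore does not sort the genes into those with and without E2F control.

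**Figure D2:**
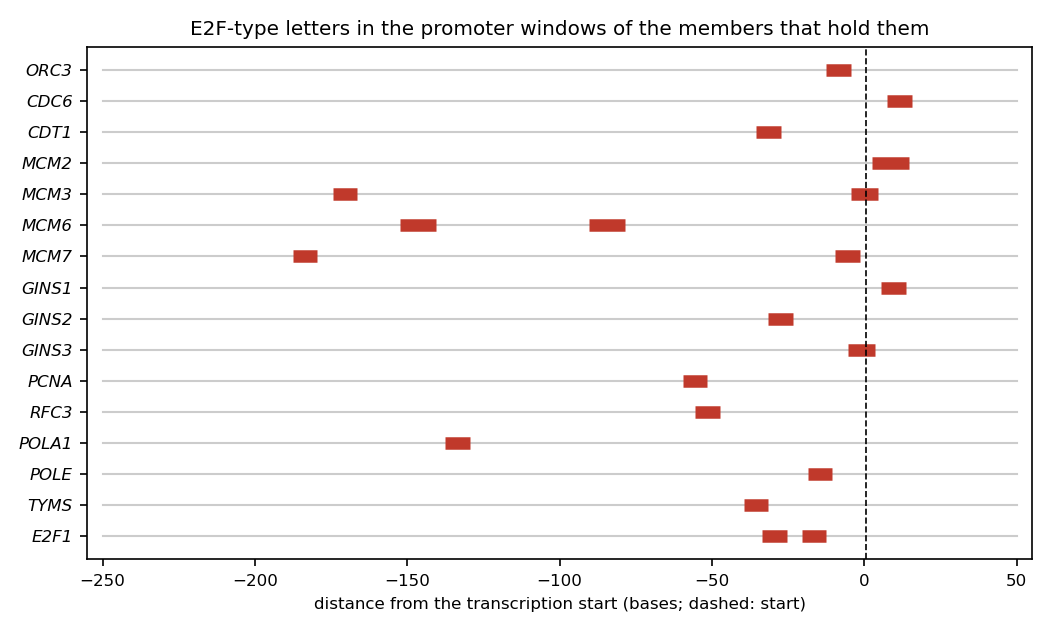
Positions of E2F-type letters (bars) in the window from 250 bases before to 50 bases after the transcription start (horizontal axis, bases) in the 16 genes that hold them, with all starts of a gene on 1 line. In 12 of the 16 a match begins within 50 bases of the start.

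The origin recognition complex marks where replication can begin. Beside ORC4, its subunits lay on both sides of 0. ORC1, the large ATPase subunit whose level cycles in human cells, measured 11.92, 11.97 and 12.12 with the miR-543 vector, against 11.71, 11.82 and 11.78 with the control vector. Here all miR-543 arrays were the higher ones (change 0.23, SE 0.14, adjusted p = 0.590). ORC3 and ORC5, 2 further core subunits, had changes of -0.24 and -0.23 with groups that did not overlap, and adjusted p-values of 0.597 and 0.612. ORC6, the smallest subunit, had a change of -0.17, and ORC2, which pairs with ORC3 in the complex, one of 0.11, both with overlapping groups. Of the 6 subunits 4 had separated groups, 3 of them lower and 1 higher, where 15.4% of all probe sets and 21.5% of those above the upper quartile had separated groups. Without control replicate 2 the change of ORC6 was -0.08, and without miR-543 replicate 1 it was -0.26. Whether ORC4 and ORC1 differ in their change was not tested.

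CDT1, which brings the MCM ring to the origin and is inhibited by geminin, stood beside CDC6 with wider spread. It measured 9.90, 10.28 and 9.96 with the miR-543 vector, against 10.51, 10.05 and 10.13 with the control vector. The groups overlapped, since miR-543 replicate 2 exceeded control replicates 2 and 3, and the change was -0.18 (SE 0.17, interval -0.57 to 0.20). It was -0.04 without control replicate 1 and -0.30 without miR-543 replicate 2.

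The MCM2-7 ring unwinds DNA at the fork, and its 6 subunits showed the narrowest range of changes among the groups of 6, from -0.24 to 0.05 with a median of -0.02. MCM4 measured 12.56, 12.68 and 12.35 with the miR-543 vector, against 12.88, 12.71 and 12.73 with the control vector. Its groups were barely apart, at 12.68 and 12.71 for the nearest arrays (change -0.24, SE 0.15, adjusted p = 0.609), and the change was -0.15 without miR-543 replicate 3. MCM7 measured 14.04, 14.08 and 14.13 with the miR-543 vector, against 14.18, 14.30 and 14.21 with the control vector. Those groups were also separated (change -0.15, SE 0.13, adjusted p = 0.757). The other 4 subunits lay close to 0, MCM2 at -0.02, MCM3 at 0.03, MCM5 at -0.01 and MCM6 at 0.05. Their intervals lay between -0.36 and 0.36, inside 1.5-fold, on a spread between arrays that may be technical.

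Activation of the ring needs CDC45, the GINS complex and MCM10. CDC45, which forms the active helicase with MCM2-7 and GINS, measured 14.27, 14.34 and 14.28 with the miR-543 vector, against 13.97, 14.13 and 14.17 with the control vector. The miR-543 arrays were all higher (change 0.21, SE 0.13, adjusted p = 0.646), opposite in sign to GINS1. The other GINS subunits had changes of 0.01 for GINS2, -0.07 for GINS3 and -0.19 for GINS4, with overlapping groups. That of GINS4 was -0.33 without miR-543 replicate 1 and -0.03 without miR-543 replicate 2. MCM10, a factor of helicase activation that is not part of the ring, was among the most variable, with 7.26, 6.85 and 7.83 with the miR-543 vector, against 7.45, 7.86 and 7.50 with the control vector. The lowest and nearly the highest value both came from miR-543 arrays. Its change was -0.29 (SE 0.23), and -0.06 without miR-543 replicate 2 and -0.55 without miR-543 replicate 3.

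**Figure D3:**
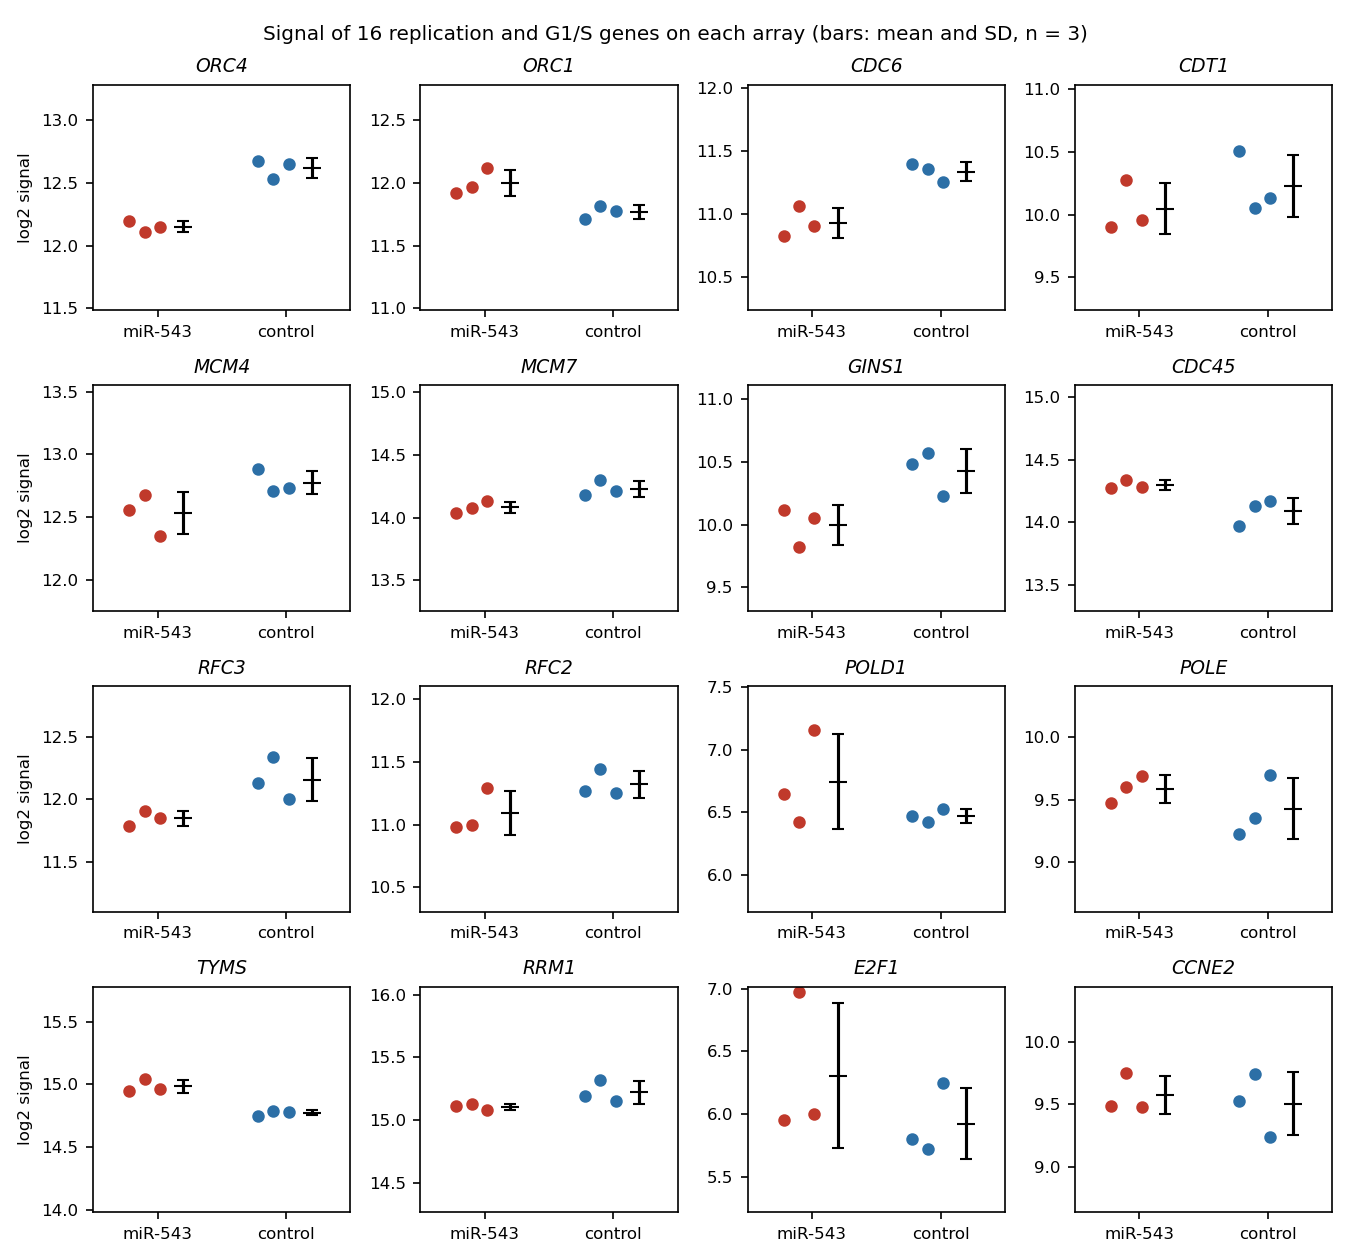
Log2 signal (vertical axes, all spanning the same range) of the 2 genes of each role group with the smallest unadjusted p, on each of the 3 miR-543 arrays (red) and 3 control arrays (blue), with bars for mean and SD. The groups are apart in 10 of the 16 genes, a count that the choice by smallest p favours. Of all 35 genes 37.1% had separated groups, beside 15.4% of all probe sets and 21.5% of those above the upper quartile. Among the 16, miR-543 is lower for ORC4, CDC6, MCM4, MCM7, GINS1, RFC3 and RRM1 and higher for ORC1, CDC45 and TYMS. For E2F1 and for POLD1, 1 miR-543 array stands away from the others.

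The clamp loader, replication factor C, opens the PCNA ring and closes it around DNA. All 5 of its subunits lay below 0. RFC3 measured 11.79, 11.91 and 11.85 with the miR-543 vector, against 12.13, 12.34 and 12.00 with the control vector. These groups did not overlap (change -0.31, SE 0.14, interval -0.63 to 0.01, adjusted p = 0.497). RFC2 measured 10.98, 11.00 and 11.29 with the miR-543 vector, against 11.27, 11.44 and 11.25 with the control vector. Its miR-543 replicate 3 lay among the control arrays (change -0.23, adjusted p = 0.639). RFC1, the large subunit, had a change of -0.19, RFC5 one of -0.11 and RFC4 one of -0.10, all with overlapping groups. PCNA itself, for which probes may also read processed pseudogenes, had a change of 0.17 (SE 0.14, adjusted p = 0.727), with means of 14.51 ± 0.045 and 14.34 ± 0.11 (SD, n = 3 each) and separated groups. Single arrays moved several of these values. Without control replicate 3 the change was -0.32 for RFC1, -0.15 for RFC4 and 0.11 for PCNA, and without control replicate 2 it was -0.10 for RFC1 and -0.03 for RFC4. RFC5 stood at -0.21 without miR-543 replicate 1 and at -0.01 without miR-543 replicate 3.

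Of the 3 catalytic subunits of replicative polymerases, POLD1 of polymerase delta measured 6.65, 6.42 and 7.16 with the miR-543 vector, against 6.47, 6.42 and 6.53 with the control vector. The groups overlapped and miR-543 replicate 3 was the high one. Its change was 0.27 (SE 0.19), 0.06 without that array and 0.43 without miR-543 replicate 2. POLE, the catalytic subunit of polymerase epsilon, measured 9.47, 9.60 and 9.69 with the miR-543 vector, against 9.23, 9.35 and 9.70 with the control vector, which overlap (change 0.16, SE 0.16, adjusted p = 0.791). Without control replicate 1 its change was 0.06, and without control replicate 3 it was 0.30. POLA1, of the polymerase that starts each strand with primase, had a change of -0.02.

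The nucleotide enzymes were the steadiest group, with a median residual SD of 0.065. TYMS, thymidylate synthase, which makes the thymidine nucleotide, measured 14.95, 15.04 and 14.96 with the miR-543 vector, against 14.75, 14.79 and 14.78 with the control vector. Its groups were apart by far more than the spread within either (SD 0.049 and 0.021), and the change was 0.21, or 116% of the control level. Under the moderated SE of 0.13, which borrows spread from all probe sets, its adjusted p was 0.623. RRM1, the large subunit of ribonucleotide reductase, measured 15.11, 15.13 and 15.08 with the miR-543 vector, against 15.19, 15.32 and 15.15 with the control vector. These did not overlap either (change -0.11, SE 0.13, adjusted p = 0.831). RRM2, the small subunit that limits the enzyme in S phase, had a change of 0.06 with overlapping groups. Without control replicate 2 the changes of RRM1 and RRM2 were -0.06 and 0.10, and without control replicate 3 that of RRM2 was 0.01.

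Cyclin E1 and E2 drive entry into S phase with CDK2, and E2F1 is the activating transcription factor of many genes above. E2F1 measured 5.95, 6.97 and 6.0 with the miR-543 vector, against 5.80, 5.72 and 6.25 with the control vector. One miR-543 array, replicate 2, stood well above the other 5. The change was 0.38 (SE 0.26, interval -0.20 to 0.97, adjusted p = 0.675), and 0.05 without that array. Its signal was near the array medians, and signal over background was not tested. CCNE2 measured 9.49, 9.75 and 9.48 with the miR-543 vector, against 9.53, 9.74 and 9.24 with the control vector. These values overlap fully (change 0.07, SE 0.17, adjusted p = 0.925). CCNE1 had a change of -0.07 (SE 0.18), with means of 9.40 ± 0.29 and 9.48 ± 0.20 (SD, n = 3 each).

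Each gene was set against its own mean over the 6 arrays, and the median of these deviations was -0.07, -0.03 and -0.03 on miR-543 replicates 1, 2 and 3, against 0.02, 0.08 and -0.01 on control replicates 1, 2 and 3. The 3 miR-543 medians were all below the 3 control medians, the nearest being -0.027 and -0.008. The corresponding medians over all probe sets ran from -0.012 to 0.012, but a median over so many probe sets varies less than one over 35 genes. Whether the 35 differ in this from other genes of like signal was not tested. The highest value lay on miR-543 replicates 1, 2 and 3 for 0, 6 and 6 genes, and on control replicates 1, 2 and 3 for 8, 11 and 4. The lowest value lay on them for 8, 7 and 4 genes (miR-543) and for 7, 2 and 7 (control), in the same order. Each tie was counted on a single array. For MCM3, RFC4 and POLD1 a miR-543 and a control array shared the lowest value, and the control array was counted. Without control replicate 3 the median change of the 35 was -0.15, and without control replicate 2 it was -0.03.

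**Figure D4:**
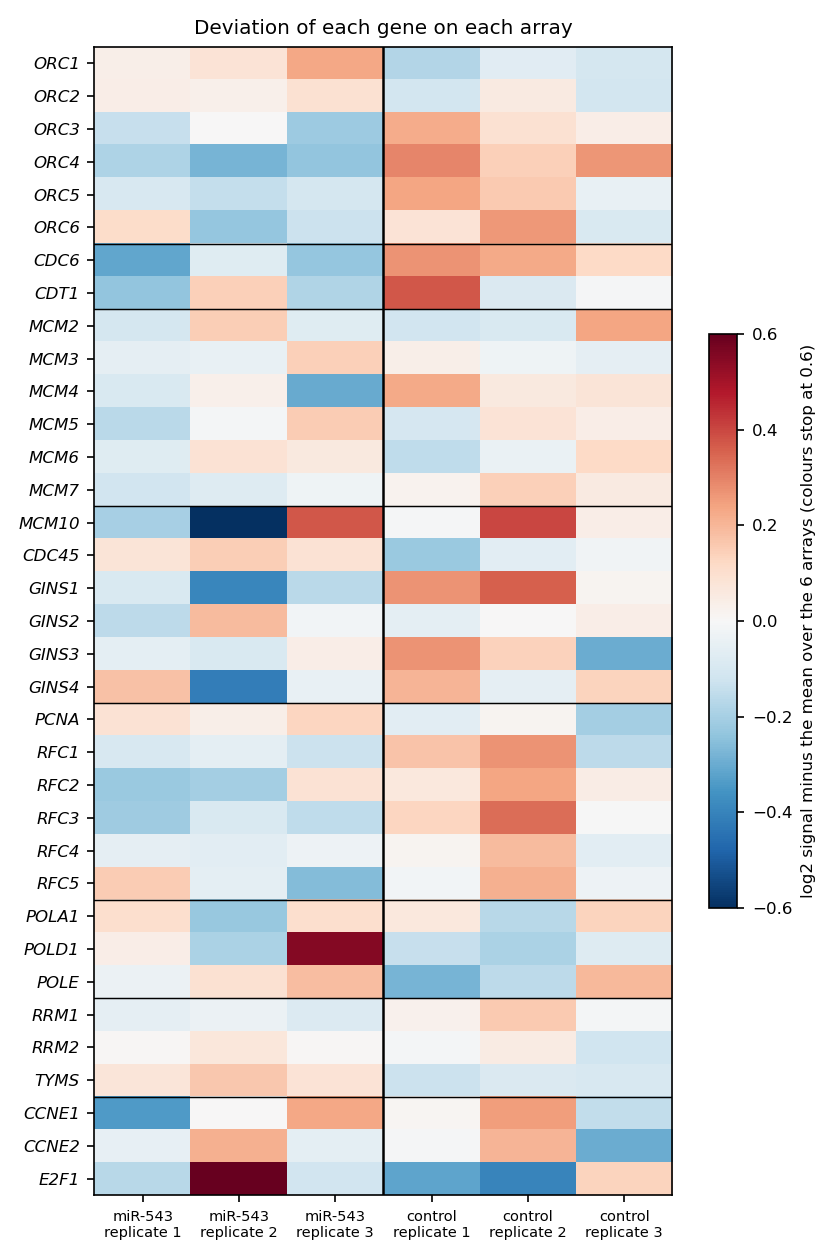
Deviation of each gene's log2 signal from its mean over the 6 arrays (colour, red higher and blue lower), with genes in rows by role and the 3 miR-543 arrays to the left of the 3 control arrays. The strongest colours are single arrays, MCM10 and E2F1 on miR-543 replicate 2 and POLD1 on miR-543 replicate 3.

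A wider list of 86 pathway genes, compiled by role, had 80 measured and 0 called, with 10 at an unadjusted p under 0.05, or 12.5% (6 lower, 4 higher), close to the 10.6% of all probe sets. Their median was -0.01, with 41 below 0 and 39 above. Of 34 partners at the fork 5 were lower and 1 higher at an unadjusted p under 0.05 (5.21% and 5.40% of all probe sets), and the median was -0.08. In place of these 6 there were 2 without miR-543 replicate 3 or control replicate 1, 3 without miR-543 replicate 2 or control replicate 2, and 8 without control replicate 3. TIPIN, which steadies the fork with TIMELESS, measured 10.22, 10.22 and 9.93 with the miR-543 vector, against 10.69, 10.76 and 10.46 with the control vector. These groups were apart (change -0.51, SE 0.15, adjusted p = 0.263). ATAD5, which unloads PCNA, had a change of -0.47 and the primase PRIM1 one of -0.38, while POLE4, an accessory subunit of polymerase epsilon, had one of 0.47 (adjusted p = 0.351, 0.439 and 0.414).

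Among 10 other enzymes of nucleotide supply 8 lay above 0, with a median of 0.11, and 20% lay below 0, beside 47.1% of all probe sets. At an unadjusted p under 0.05 there were 2, both higher, where 5.40% of all probe sets were higher at such a p. This count was 0 without control replicate 1 or 3 or without miR-543 replicate 1 or 3. It stayed 2 without control replicate 2 or miR-543 replicate 2. SAMHD1, which breaks down deoxynucleotides, had a change of 0.43 and UMPS, of pyrimidine synthesis, one of 0.38 (adjusted p = 0.374 and 0.414). The thymidine kinase TK1 had a change of 0.20 and the reductase subunit RRM2B one of 0.14.

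Regulators of the retinoblastoma pathway and G1/S lay evenly about 0, 15 of 29 below and 14 above, with a median of -0.003. FBXW7, which marks cyclin E for destruction, measured 8.44, 8.31 and 8.45 with the miR-543 vector, against 7.77, 8.07 and 8.13 with the control vector. Its miR-543 arrays were all higher (change 0.41, SE 0.15, adjusted p = 0.369). The G1 kinase CDK6 had a change of -0.40 and its partner cyclin D1, CCND1, one of -0.34 (adjusted p = 0.456 and 0.474), and the CDK4/6 inhibitor CDKN2D had one of 0.45 (adjusted p = 0.515) at a low signal, 5.53 and 5.08 with the miR-543 and the control vector. Of 7 genes of the ATR checkpoint, which guards stalled forks, 5 lay below 0 (47.1% of all probe sets), with a median of -0.18. Their changes were -0.34 for RAD9A and -0.23 for HUS1, both of the checkpoint clamp, -0.29 for the kinase CHEK1 and 0.21 for ATR, and the smallest adjusted p was 0.511.

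**Figure D5:**
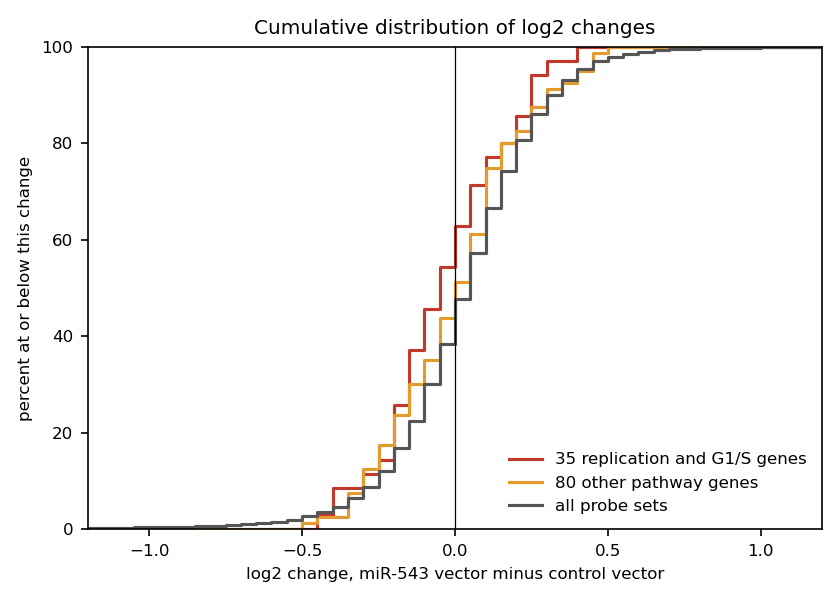
Cumulative percent (vertical axis) of genes or probe sets with a log2 change, miR-543 vector minus control vector, at or below the value on the horizontal axis, in steps of 0.05. The curve of the 35 genes lies left of that of all probe sets near 0 (62.9% against 47.1% below 0) and ends at 0.38, and the 80 other pathway genes (51.2% below 0) lie between them there.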

How the data were processed

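RNA of 6 K562 samples was hybridised to single-colour arrays, and groups and replicate numbers came from the sample titles. The authors deposited log2 signals per probe set, rounded to 2 decimals, made with Transcriptome Analysis Console 4.0 and RMA per the submitters' processing notes. RMA removes background, puts arrays on a common scale and combines the probes of a set. The annotation release and genome build are not given in the sources used here. The table held 0 columns of other samples. The number of arrays limits the precision.

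All 21448 probe sets were fitted with limma 3.58.1 in R 4.3.3 (lmFit and eBayes, no block, filter or weights), two-sided, with Benjamini-Hochberg adjustment over all of them, and called at an adjusted p under 0.05. SE is the moderated standard error and intervals are 95% intervals. The fit was tested on simulated data. Genes were named from the platform annotation, and all 35 symbols were unchanged in RefSeq's gene table. A gene with several probe sets would take the one with the highest mean, which applied to 0 of the 35.

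The 35 genes, the other lists and the settings were chosen with earlier results of these data known. All 35 genes are named, with every array's value for those with an unadjusted p under 0.05 and the 2 with the smallest p in each role, and up to 4 genes of each wider list are named by smallest p. The markers named were picked from their lists after their values were seen. Lists were described by counts and medians, with no set test. Alternatives were the replicate block, each replicate left out, trend and robust variance, 2 rescalings, a signal filter, array weights and averaged probe sets. Promoter and miRNA sequences are RefSeq's (GRCh38.p14).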

Additional observations from a re-analysis of the deposited data

How the results depend on the processing

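Over 13 alternatives, 26 of the 35 genes kept the sign of their change and 9 did not, and ORC4 was the 1 gene called in any of them. The replicate block, the trend and robust variance, the signal filter and averaged probe sets leave these changes as they were. Those settings could not turn a sign, so the count of kept signs rests on the others. With trend and robust variance the count of called genes among the 35 was 1, and 252 probe sets were called in place of 122. ORC4 then stood at -0.47 (adjusted p = 0.0414). At an unadjusted p under 0.05 there were 8 of the 35, against 3 in the fit reported, and 1 gene of the ATR list. The share of all probe sets at such a p is not given here for any alternative. These counts therefore have no background beside them and are not read as a result about the lists. Deviations of same-numbered replicates correlated at 0.09, -0.05 and 0.02, under the threshold of 0.1 set for pairing, and the fit was left unpaired. Such correlations cannot tell whether same-numbered samples shared a culture or a run. With the replicate block 71 probe sets and 0 of the 35 genes were called. A quantile normalization turned MCM5 to 0.019 and array weights turned MCM2 to 0.0026, gave 4 regulators of the retinoblastoma pathway and G1/S under an unadjusted p of 0.05 and 1 gene of the ATR list, which the filter at the 50th percentile also gave. Leaving out 1 replicate, with fewer samples per fit, gave 34 to 59 called probe sets, 0 called among the 35, and medians of -0.15 to -0.032 for the 35, -0.057 to 0.035 for the retinoblastoma and G1/S list and -0.23 to -0.013 for the ATR list. The counts at an unadjusted p under 0.05 were then 2 to 8 for fork partners, 0 to 2 for nucleotide supply, 0 to 4 for the retinoblastoma and G1/S list and 0 to 1 for the ATR list. The genes whose sign turned ran from -0.21 to 0.078 (CCNE1), -0.062 to 0.19 (CCNE2), -0.083 to 0.092 (GINS2), -0.24 to 0.043 (GINS3), -0.098 to 0.093 (MCM2), -0.035 to 0.065 (MCM3), -0.092 to 0.063 (MCM5), -0.013 to 0.12 (MCM6) and -0.11 to 0.093 (POLA1). The cause was not tested. No value of signal over background was used, so the low signals of E2F1 and POLD1 are the least certain.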
